A study of Mus musculus with 2 samples.

Results

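The scavenger receptors for modified lipoproteins were followed as 10 genes: Cd36, Msr1, Marco, Scarb1, Olr1, Cd68, Colec12, Stab1, Lrp1 and Cd163. They were chosen by name, with earlier results of these data known. A probe was taken for a gene when its RefSeq accession belonged to that gene. This gave 11 probes for 9 of the 10 genes, of 20660 genes named on the array, with 2 probes each for Msr1 and Scarb1 and 1 for each of the other 7. No probe was matched to Cd68, a lysosomal glycoprotein of macrophages, so its mRNA was not analysed here. Both arrays measured mRNA of macrophages grown from mouse marrow, Capn6-Wt from mice with calpain-6 and Capn6-Ko from mice lacking it, with 1 array for each genotype. Calpain-6 belongs to the calpain family but lacks the catalytic cysteine of its proteases. The cells of both genotypes came from male mice and grew with 10% serum, 50 ng/mL of the growth factor M-CSF and 10 ng/mL of the inflammatory cytokine TNF-α, so no group is without TNF-α. The labels name day 3 in one field and day 4 in another, give neither strain nor age, and speak of cells of 4 mice that were pooled, without saying whether this is the number for each genotype.

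Scavenger receptors bind lipoproteins that have been oxidised or acetylated, along with bacterial surface molecules, dying cells and other polyanionic ligands. Unlike the LDL receptor, most of them are not turned down when the cell fills with cholesterol, which is why macrophages that take up modified LDL through them can become foam cells in the artery wall. The class A receptors Msr1, Marco and Colec12 are trimers with a collagen-like stalk. The class B receptors Cd36 and Scarb1 cross the membrane at both ends. Olr1 is a C-type lectin-like receptor, Stab1 a large multidomain receptor with fasciclin domains, Lrp1 a giant member of the LDL receptor family, and Cd163 the haemoglobin-haptoglobin receptor. Calpain-6 has been studied in macrophages for its part in the uptake of LDL, and setting the arrays of both genotypes side by side asks here whether the mRNAs of these receptors differ between the cultures.

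Lrp1 and Cd36 had the brightest probes among these receptors, and Olr1 the dimmest one measured. The 250 bases before the RefSeq start of each show the DNA upstream of receptors at both ends of the range. They are credited to RefSeq, build GRCm38.p6, and lie at chr10:127621149-127621398, chr5:17835897-17836146 and chr6:129507166-129507415, all on the reverse strand. They are written 5′ to 3′, with matches to 6 motifs in capitals: TGANTCA of AP-1, GAGGAA of PU.1, TATAAA of the TATA box, GGGCGG of the GC box, AGGTCA of the nuclear receptor half-site, and CCAAT, each on either strand.
Lrp1: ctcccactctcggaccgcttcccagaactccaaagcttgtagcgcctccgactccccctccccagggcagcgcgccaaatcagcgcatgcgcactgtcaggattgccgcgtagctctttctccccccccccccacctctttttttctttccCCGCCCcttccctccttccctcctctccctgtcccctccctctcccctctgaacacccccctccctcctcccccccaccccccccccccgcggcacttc
Cd36: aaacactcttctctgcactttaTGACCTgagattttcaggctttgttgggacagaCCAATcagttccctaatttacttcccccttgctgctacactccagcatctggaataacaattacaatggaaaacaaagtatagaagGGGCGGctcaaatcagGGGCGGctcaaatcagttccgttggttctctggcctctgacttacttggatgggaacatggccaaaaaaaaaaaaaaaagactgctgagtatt
Olr1: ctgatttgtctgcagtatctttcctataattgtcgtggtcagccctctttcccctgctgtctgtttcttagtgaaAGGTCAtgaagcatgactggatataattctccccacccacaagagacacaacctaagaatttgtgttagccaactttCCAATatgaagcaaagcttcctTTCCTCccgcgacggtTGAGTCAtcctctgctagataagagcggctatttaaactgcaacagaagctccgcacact

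The Lrp1 window is rich in G and C, 67.2%, against a median of 52.4% over 32851 windows of the same length, and holds 1 GC box. The Cd36 window, at 43.2%, holds 2 GC boxes, 1 CCAAT and 1 nuclear receptor half-site at position -228, counted from the start of the gene. The Olr1 window, at 45.2%, holds the AP-1 letters at position -60 and the PU.1 letters at position -76, along with 1 CCAAT and 1 half-site. No matches overlapped. The 7 receptors with a window include Cd68, which had no probe. Among them AP-1 letters were found in 2 (6.75% of all windows), PU.1 letters in 4 (23.3%) and the GC box in 3 (32.7%). The half-site was found in 2 (14.0%), CCAAT in 5 (33.8%) and TATAAA in 0 (12.4%). Such matches describe the letters and were not tested as binding sites. Msr1, Scarb1 and Colec12 have no window shown.

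Each value below is the processed signal of a spot, a background-subtracted brightness on a linear scale, and every receptor probe was read from 1 spot on each array. A probe is called measured when it was well above background on both arrays. The log2 difference is Capn6-Ko minus Capn6-Wt after each array was set on its 75th percentile, which was 377 for Capn6-Wt and 372 for Capn6-Ko. Each ± is the spot SD, the error of such a difference computed from repeated spots at that level, which covers spotting and scanning only. With 1 pooled array for each genotype no test was possible, so differences are described against this spot SD, against a fixed log2 size of 0.32 (25% brighter or 20% dimmer), and against all 12875 measured genes. Those had a median difference of -0.0056 and an SD of 0.18. In bulk RNA, fewer cells of a type and less RNA per cell cannot be told apart. The targeted gene checks nothing here, since its only probe was not well above background on either array, with signals of 3.93 and 8.65. All 12 macrophage markers were measured on both arrays.

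The receptors spanned nearly the whole brightness range of the array, from Lrp1 near the top to Cd163 below detection. The probes came in the same order on both arrays: Lrp1, Cd36, the brighter Scarb1 probe, Stab1, the brighter Msr1 probe, the dimmer Scarb1 probe, the dimmer Msr1 probe, Marco, Colec12, Olr1 and Cd163. The signal of Lrp1 stood at percentile 98.0 of all probes on both arrays, and that of Cd36 at percentiles 95.3 and 95.2. The measured probes farthest below these were Marco (percentiles 68.8 and 69.9), Colec12 (68.6 and 69.1) and Olr1 (51.2 and 50.2). This is an order of spot brightness and not of mRNA amount, because brightness also depends on how a probe binds. The 2 Scarb1 probes, which report the same gene, differed 4.63-fold in signal with Capn6-Wt and 5.09-fold with Capn6-Ko. 3 places in the order were within the spot SD on 1 array only. Marco lay 0.043 ± 0.18 above Colec12 on the log2 scale with Capn6-Wt and 0.16 ± 0.15 with Capn6-Ko. The brighter Msr1 probe lay 0.025 ± 0.079 above the dimmer Scarb1 probe with Capn6-Wt but 0.38 ± 0.082 with Capn6-Ko, and that Scarb1 probe lay 0.28 ± 0.079 and 0.031 ± 0.079 above the dimmer Msr1 probe. The other neighbours among the measured probes were apart by more than the spot SD on both arrays.

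**Figure D1:**
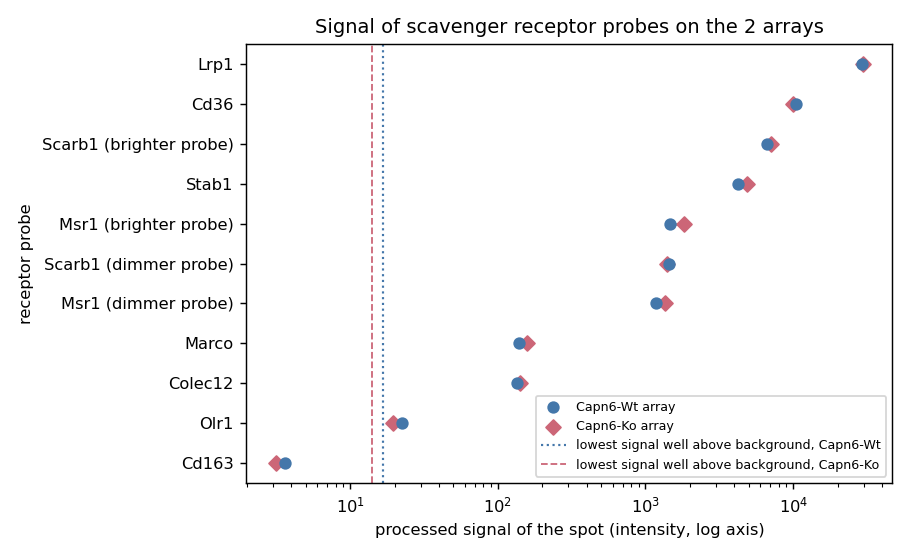
Processed signal (intensity, log axis) of each of the 11 receptor probes, with circles for the Capn6-Wt array and diamonds for the Capn6-Ko array; lines mark the lowest signal well above background on each array, 16.6 and 14.0. The points of a probe lie close together, the probes fall in the same order on both arrays, and Cd163 alone lies below both lines.

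Among the class A receptors, Msr1 was higher in the Capn6-Ko culture, Marco was higher by little more than its spot SD, and Colec12 lay within it. Msr1, scavenger receptor A, takes up acetylated and oxidised LDL. Its brighter probe gave 1459 with Capn6-Wt and 1811 with Capn6-Ko, a difference of 0.33 ± 0.082, or 1.26-fold. Its dimmer probe gave 1178 and 1361, a difference of 0.23 ± 0.079, or 1.17-fold. Both probes were thus brighter on the Capn6-Ko array, and the gap between their differences, 0.10 ± 0.11, was within the spot SD. As a gene Msr1 stood at 0.28 ± 0.057, or 1.21-fold, which ranked 468 from the highest of 12875 measured genes. The brighter probe was the only receptor probe past the fixed size, which 3.95% of all 27471 measured probes passed upwards and 6.38% downwards. The Msr1 gene value passed that size when each array was centred on its median (0.34) or only the brightest probe was taken (0.33). Centring on the median raised all genes alike, by 0.065, so the rank of Msr1 among them stayed the same.

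Marco, a bacteria- and particle-binding receptor of macrophages, gave 140 with Capn6-Wt and 158 with Capn6-Ko. Its difference was 0.20 ± 0.15, or 1.14-fold. These signals were 8.42 and 11.3 times the lowest signal well above background of each array. Colec12, a collectin-type scavenger receptor, gave 136 and 142, a difference of 0.082 ± 0.18. Both are dim probes, and their spot SDs are wider than that of Msr1.

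The class B receptors were bright in both cultures and differed little. Cd36, which binds oxidised LDL and long-chain fatty acids, gave 10397 in Capn6-Wt and 9933 in Capn6-Ko. Its difference of -0.048 ± 0.083 was within the spot SD. It turned to 0.017 when the arrays were centred on their medians, which raised all genes alike, by 0.065. Scarb1, the receptor through which HDL gives up cholesteryl esters, gave 6637 and 7087 with its brighter probe, a difference of 0.11 ± 0.079. Its dimmer probe gave 1434 and 1391, a difference of -0.026 ± 0.079, which turned to 0.039 with arrays centred on their medians and to 0.062 after normexp, another background correction. The probes of Scarb1 thus lay on both sides of 0, 0.14 ± 0.11 apart. Their mean was 0.044 ± 0.056, within the spot SD, and came to 0.11 both from the brighter probe alone and with arrays centred on their medians.

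Stab1, a scavenger receptor of alternatively activated macrophages and sinusoidal endothelium that clears acetylated LDL and the matrix protein SPARC, was brighter in the Capn6-Ko culture. It gave 4219 with Capn6-Wt and 4860 with Capn6-Ko, a difference of 0.22 ± 0.074, or 1.17-fold. This ranked 766 from the highest of all measured genes. Lrp1, which internalises remnant lipoproteins, aggregated LDL and protease-inhibitor complexes, gave 29199 and 29729, a difference of 0.044 ± 0.083. Its signal was thus the same on both arrays to within the spot SD.

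Olr1, also known as LOX-1, a receptor for oxidised LDL best known in endothelium, was only just detected. It gave 22.5 in Capn6-Wt and 19.5 in Capn6-Ko, which are 1.36 and 1.39 times the lowest signal well above background. Its difference was -0.19 ± 0.34, within the spot SD, and it came to 0.0041 after normexp. Cd163 gave 3.62 and 3.13, not well above background on either array, so no fold is given. The macrophage hallmark Cd163 was thus not detectable with this probe in either culture.

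In all, 6 of the 8 measured receptors were higher in Capn6-Ko and 2 lower, beside 47.8% of all measured genes being higher. Only Msr1, Stab1 and Marco, all higher, differed by more than their spot SD, and the other 5 lay within it. The median difference of the 8 receptors was 0.063, less than their median spot SD of 0.083, beside -0.0056 over all genes. Their differences ran from -0.19 to 0.28. By the fixed size 0 of 8 were higher and 0 lower, a size that 2.64% of all genes passed upwards and 5.53% downwards. At 1.1-fold, a size added after the data were seen, Msr1, Stab1 and Marco were higher and Olr1, within its spot SD, was lower. That size was passed upwards by 12.4% and downwards by 15.1% of all genes. The measured genes above the median level, 6437 in number, hold 5 of the receptors and had an SD of 0.10. At 1.1-fold 2 of these 5, Msr1 and Stab1, were higher and 0 lower, beside 6.66% and 5.45% of that brighter set. Msr1 and Stab1 were also the receptors past 2 spot SDs. The share of all genes past 2 spot SDs was not computed, so this does not set them apart from other genes.

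**Figure D2:**
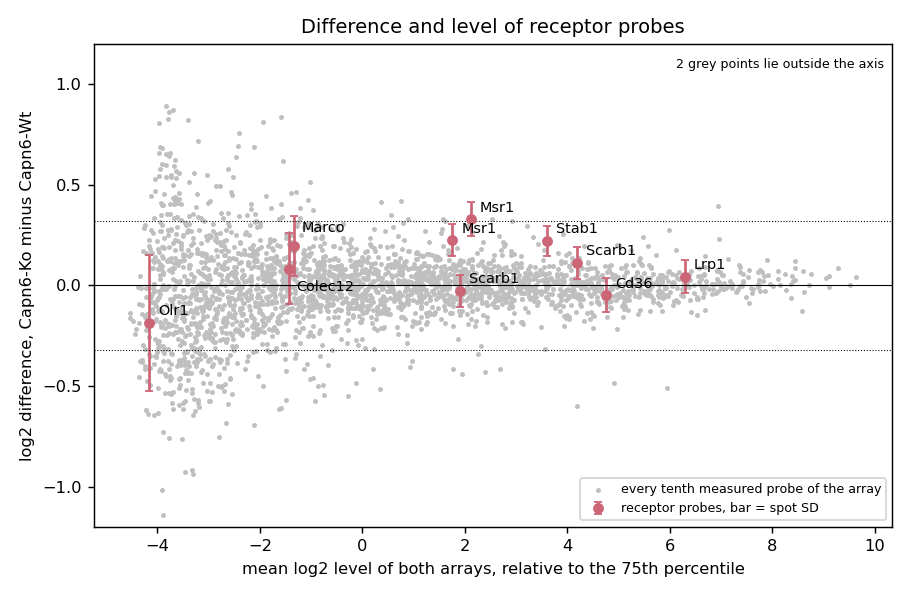
Log2 difference, Capn6-Ko minus Capn6-Wt, against the mean log2 level of both arrays for the 10 measured receptor probes (red, bars are the spot SD) and for 1 in 10 of all measured probes (grey); dotted lines mark the fixed size of 0.32. The brighter Msr1 probe touches the upper line at 0.33, Stab1 and the other Msr1 probe lie at 0.22 and 0.23, and Cd36 and Lrp1 lie near 0.

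**Figure D3:**
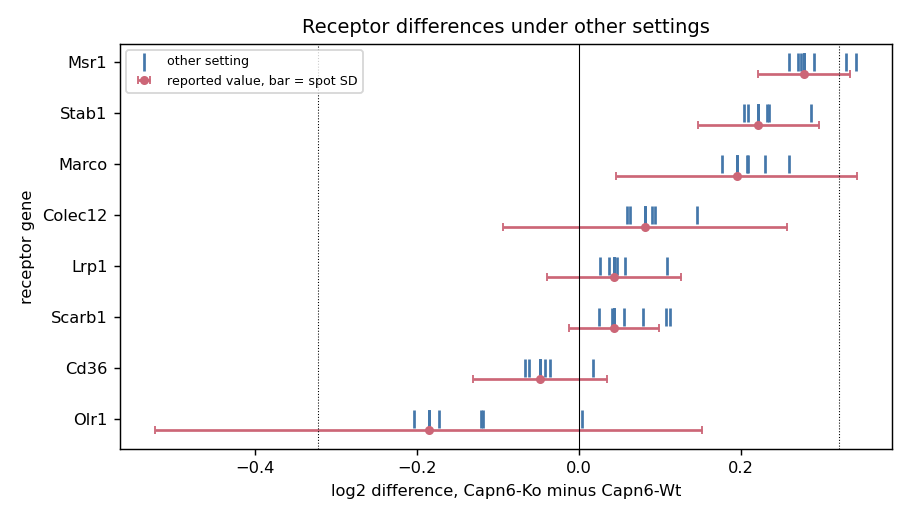
Log2 difference of each of the 8 measured receptor genes as reported (red, bar is the spot SD) and under the other settings of array scaling, background correction, probe choice and probe averaging (blue ticks); dotted lines mark the fixed size of 0.32. Msr1 stays between 0.26 and 0.34 and Stab1 between 0.20 and 0.29, while the ticks of Cd36 and Olr1 fall on both sides of 0.

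Other scavenger receptors of the standard classes were mixed. Of 19 listed genes 11 were measured, 5 higher and 6 lower, with a median of -0.036. The 1 past the fixed size was Cd207, the C-type lectin langerin, at 469 with Capn6-Wt and 645 with Capn6-Ko, a difference of 0.48 ± 0.095. In the LDL receptor family and its chaperones, 18 of 20 were measured, 8 higher and 10 lower, with a median of -0.026. Dab2, an endocytic adaptor, was past the fixed size. It gave 1076 and 1348, a difference of 0.34 ± 0.079. Lrp3 was detected on the Capn6-Ko array alone, although its signal there, 16.3, was no higher than the 16.5 on the Capn6-Wt array.

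Partners and regulators of the receptors, such as the kinases that act below Cd36 and the nuclear receptors that drive its transcription, had 20 of 21 genes measured. They were split 10 and 10, with a median of 0.00062, and only the caveolar protein Cav1 was past the fixed size, at 0.34 ± 0.34. Genes that handle lipoprotein lipid inside the cell had 16 of 16 measured, 5 higher and 11 lower, with a median of -0.031. Lpl, the secreted lipoprotein lipase, was the 1 past the fixed size, at 0.38 ± 0.059, and its brighter probe gave 50229 in Capn6-Wt and 64833 in Capn6-Ko. Genes of fluid-phase uptake, which needs no receptor, and of coated-pit uptake, which brings in receptors such as Lrp1, had 12 of 18 higher, a median of 0.029 and 0 past the fixed size in either direction. No gene of these 5 lists was lower by the fixed size.

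Most macrophage markers were higher in Capn6-Ko and the measured stromal fibroblast markers lower, and these values stand beside those of Msr1 and Stab1, which macrophages express, and of Lrp1, which fibroblasts express too. Of the 12 macrophage markers 9 were higher, 2 of them past the fixed size, with a median of 0.13 and a range from -0.034 to 0.36. Itgam, C1qa and Tyrobp were higher by less than their spot SD, and Mertk, Ctss and Lyz2 lower by less than it. The signal of the macrophage markers, summed over measured probes and divided by the 75th percentile of the array, was 2069 in Capn6-Wt and 2151 in Capn6-Ko. Cd14, the endotoxin co-receptor, stood at 0.36 ± 0.074 and Aif1, an actin-binding protein of macrophages, at 0.36 ± 0.083, both above Msr1 at 0.28. Of the 12 stromal markers 11 were measured and all 11 were lower, 9 past the fixed size, with a median of -0.50. Their summed signal over the 75th percentile was 158 in Capn6-Wt and 108 in Capn6-Ko. Tagln (-0.61 ± 0.083) and Acta2 (-0.60 ± 0.024), which encode proteins of the contractile apparatus, and Col1a2, a collagen chain (-0.60 ± 0.079), were furthest, and Lum was not well above background on either array. Their part in the receptor values was not tested.

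Cd36 and Stab1 are also found outside macrophages, in platelets and in endothelium. All 6 platelet and megakaryocyte markers were higher, with a median of 0.27 and a summed signal of 32.0 and 35.8 over the 75th percentile, led by the platelet glycoprotein Gp9 (0.33 ± 0.12). Of 8 endothelial markers 4 were measured, all lower but each within its spot SD, with a median of -0.052 and a summed signal of 38.3 and 36.9. Cdh5, Tek, Emcn and Lyve1 were not well above background on either array. Of 5 adipocyte markers only Retn was measured, at -0.13 ± 0.34, and Adipoq, Plin1, Cidec and Lep were not well above background. Neutrophil markers had 3 of 7 higher with a median of -0.016 and 1 past the fixed size, the granule protein Ltf at 0.33 ± 0.18. Dendritic cell markers had 2 of 3 measured ones higher, with a median of 0.084, while Flt3, Zbtb46 and Xcr1 were not well above background on either array.

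**Figure D4:**
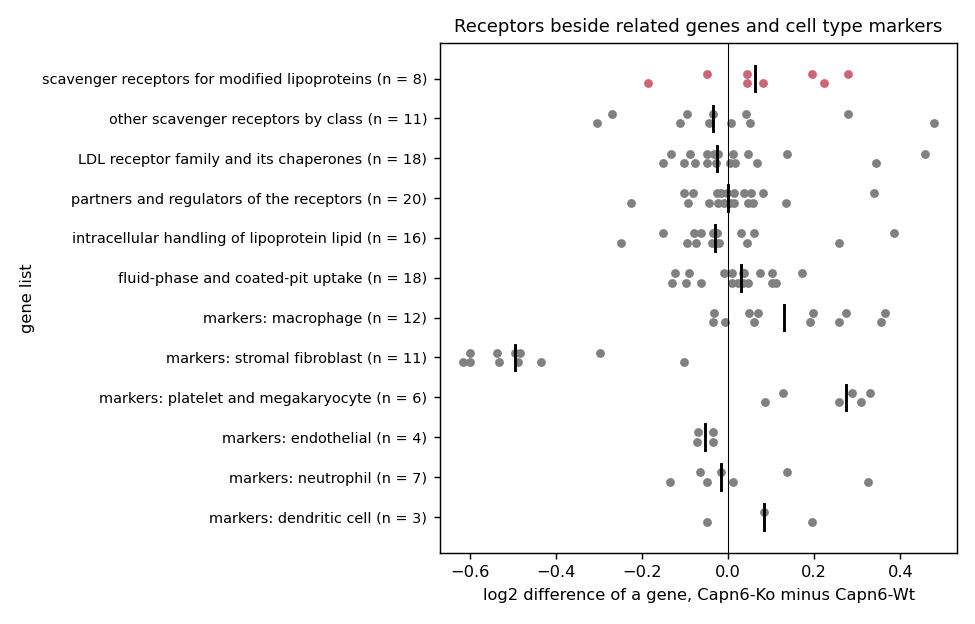
Log2 difference, Capn6-Ko minus Capn6-Wt, of each measured gene in the receptor list (red), in 5 lists of related genes and in 6 lists of cell type markers (grey); black bars are the medians. The receptors have a median of 0.063, the macrophage markers 0.13 and the stromal markers -0.50, and the lists of related genes centre near 0.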

How the data were processed

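The authors' deposited scanner files give spot intensity, linear and background-subtracted, from Agilent Feature Extraction (version 10.10.1.1 per the file headers); both arrays lay on 1 slide and were scanned together. Their value table holds this intensity times a constant for each array, 2.39 and 2.42, uncentred and with no direction, with column medians of 53.0 and 50.7; the sources used here do not give how the constants were chosen. Control spots and outlier-flagged spots (161 and 136) were left out; none was saturated. Processed signals were divided by the 75th percentile over non-control spots and put on the log2 scale, spots of a probe were averaged, and a gene is the mean over its measured probes. Probes were named by accession through a RefSeq table of GRCm38.p6 (27232 of 55678 probes had 1 gene, 28446 stayed unnamed); the array is annotated on mm9. The spot SD of a difference combines both arrays and the number of spots and probes behind it; the SD of a single spot on 1 array that it starts from was 0.053 to 0.24 on the log2 scale, over 8 bins of level, from 267 probes with at least 5 spots. Named were all members, in every other list the 3 genes furthest in each direction past the fixed size, and listed genes detected on 1 array. A result under this rule is not reported here. The members and lists were chosen with earlier results of these data known. Normexp (offset 50) used the median signal. Tried were 11 alternatives. Python 3.11.15, numpy 2.4.6, pandas 2.3.3, matplotlib 3.10.9, R 4.3.3 and limma 3.58.1 were used, and the route from spots to gene differences was tested on simulated data.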

Additional observations from a re-analysis of the deposited data

How the results depend on the processing

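Across 11 settings, 82 of 85 values of a receptor gene moved by less than its spot SD. Many of these values could hardly move, so the count says little about precision. Settings that changed only which probes or spots were used left every receptor of 1 probe unchanged. The authors' value table is the same signal times a constant for each array, and it moved the median of all genes by 4.8e-05. The median of the receptors ran from 0.044 to 0.13, and 0 receptors were lower by the fixed size under any of them. The count of receptors higher by the fixed size, 0 as reported, was 1 (Msr1) with arrays centred on their medians and 1 with only the brightest probe of each gene. With a size of 1.1-fold, added after the data were seen, it was 3 higher and 1 lower. With probes above the median level only, 5 receptors were measured in place of 8. Centring on the median moved the median of all genes by 0.065. Matching probes by gene name was not run. No paired analysis was possible because each genotype has 1 array. Precision is set by having 1 array for each genotype, and Olr1 is also limited by a signal near background.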
